A study of Mus musculus with 7 samples.

Results

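Synpr, the gene of the synaptic vesicle protein synaptoporin, was followed in optic nerves with 9 further genes whose names or functions tie them to synapses. The set holds Synpr and its relatives Syp and Sypl, the vesicle protein gene Sv2a, the synapsin genes Syn1 and Syn2, the calcium sensor gene Syt1, the fusion protein genes Vamp2 and Snap25, and Synpo. These 10 genes were taken by symbol from the 22880 genes of the deposited table, and all 10 were among the 13866 genes tested, those that reached 0.5 FPKM in 3 or more samples. FPKM is a read count scaled by transcript length and library size, so that levels can be set side by side between genes. The set was chosen with the difference between genotypes already known, so the differences of its members are given as a description, with a standard error and no p-value. Where a member is said to pass the threshold of the test or not, this too is a description, and nothing is read from it.

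RNA was measured in whole optic nerves of postnatal day 14 (P14) mice on a C57Bl/6 background, 4 of them controls (FASN lox/lox) and 3 of them mutants (olig2cre FASN lox/lox). Per the labels all 7 mice carried 2 floxed alleles of Fasn, the gene of fatty acid synthase, although the methods of the study also allow controls with a single floxed allele, and the groups differed by the presence of Cre recombinase under Olig2 regulatory elements, which act in the oligodendrocyte (OL) lineage. Each sample came from both nerves of 1 mouse and is named here by its genotype and number. The nerve is a bulk tissue, so fewer cells of a type and less RNA per cell cannot be told apart.

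Synaptic vesicles store neurotransmitter in nerve terminals and release it by fusing with the plasma membrane. Their membranes carry transporter-like and tetraspanning proteins, among them the synaptophysins, SNARE proteins that pull membranes together, and synaptotagmins that sense calcium, while synapsins on the surface hold vesicles in clusters. The optic nerve holds the axons of retinal ganglion cells, whose cell bodies lie in the retina and whose terminals lie in the brain, together with OLs, astrocytes, microglia, vessels and meninges, and several of these genes are also expressed outside neurons.

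Synpr has 2 annotated starts on chromosome 14, 169178 bases apart, and its gene-level value pools transcripts from both. The windows around them are shown because the deposited values cannot tell which start was used, and the window of Syp is set beside them as that of the closest relative. Each runs from 250 bases before the start to 50 bases after it, 5′ to 3′ on the strand of the gene (plus strand for all 3), as given by RefSeq on GRCm38.p6. Capitals mark the GC box GGGCGG and the CCAAT box on either strand, and the TATA box TATAAA was searched for as well. The windows lie at chr14:13284530-13284829 and chr14:13453708-13454007 for Synpr and at chrX:7638330-7638629 for Syp.
Synpr, upstream start: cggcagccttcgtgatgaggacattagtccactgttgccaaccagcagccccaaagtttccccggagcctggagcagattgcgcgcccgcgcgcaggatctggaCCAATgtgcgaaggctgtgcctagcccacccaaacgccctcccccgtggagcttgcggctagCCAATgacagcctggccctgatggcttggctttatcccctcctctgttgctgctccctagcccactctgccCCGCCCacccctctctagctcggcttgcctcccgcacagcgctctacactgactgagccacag
Synpr, downstream start: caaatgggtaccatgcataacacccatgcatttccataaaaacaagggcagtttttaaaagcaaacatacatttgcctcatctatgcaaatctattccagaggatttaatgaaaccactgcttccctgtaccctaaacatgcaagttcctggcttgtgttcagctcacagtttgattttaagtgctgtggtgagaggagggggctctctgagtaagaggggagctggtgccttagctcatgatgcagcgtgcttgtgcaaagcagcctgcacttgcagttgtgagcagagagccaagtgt
Syp: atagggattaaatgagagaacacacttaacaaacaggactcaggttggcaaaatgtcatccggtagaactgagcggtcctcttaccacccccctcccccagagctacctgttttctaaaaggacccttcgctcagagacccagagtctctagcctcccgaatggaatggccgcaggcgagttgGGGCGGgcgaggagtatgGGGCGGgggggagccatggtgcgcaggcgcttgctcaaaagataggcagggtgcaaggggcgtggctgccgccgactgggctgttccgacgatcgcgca
The window of the upstream Synpr start had a GC content of 63.7% and 16 CpG dinucleotides, with 1 match to the GC box and 2 to the CCAAT box. The downstream window had a GC content of 46%, 1 CpG and no match to any of the 3 motifs, so the windows of the same gene differ in composition. The Syp window had a GC content of 59%, 18 CpGs and 2 matches to the GC box. Over 32851 RefSeq windows of this length, the median GC content was 52.7% with 7 CpGs, and the GC box was found in 35.7%, the TATA box in 13.6% and the CCAAT box in 37.4% of them on either strand. Of the 10 genes, 7 had a window in this table.

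Fasn, the targeted gene, separated the genotypes. It lies at chr11:120805940-120824178 on the minus strand. Its FPKM was 210.3, 169.1, 211.1 and 228.3 in controls 1 to 4 and 69.3, 50.52 and 48.98 in mutants 1 to 3, and the mean of the mutants was 27.5% of that of the controls. The difference was -1.86 on the log2(FPKM + 0.5) scale, SE 0.138, with an adjusted p of 0.00312 (limma, adjusted over all genes tested). Over all genes, 363 passed an adjusted p of 0.05, 175 of them higher and 188 lower in the mutants, and with each sample centred on its median the split was 117 higher and 283 lower.

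Some libraries stood apart. Mutant 3 had the highest summed FPKM of 16 markers of neuron cell bodies, 486 against 368 to 424 in the controls and 357 and 379 in mutants 1 and 2. Mutant 3 also had the highest sum of 13 markers of inhibitory and hypothalamic neurons, 297 against 41.8 to 78.5 in the controls and 105 and 102 in mutants 1 and 2. Most of the sum in mutant 3 was 1 gene, Avp, at 224.5 FPKM. Over the 13 markers the median log2 difference was 0.06, with 7 above and 6 below 0. Mutant 1 had the highest sum of 9 markers of meningeal fibroblasts, 19279 FPKM against 7666 to 8847 in the controls, with 9904 and 13197 in mutants 2 and 3. Each member is therefore also given without mutant 3. Library totals recovered from the values ran from 27450352 to 43454699 reads, and mutant 3 had the lowest.

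Of the synaptophysin family, whose proteins cross the vesicle membrane 4 times, Synpr was higher in the mutants, Sypl had a lower mean and Syp was high in 1 mutant only. Synpr lies at chr14:13284780-13615459 on the plus strand. Its FPKM was 1.512, 2.282, 2.253 and 1.652 in controls 1 to 4 and 4.219, 6.948 and 7.822 in mutants 1 to 3. All 3 mutants were above all 4 controls, with a gap between 2.282 and 4.219, and the groups were also apart in the deposited normalized counts, at 134.6 to 210.5 and 343.9 to 658.1. The control mean was 1.92 ± 0.400 FPKM (SD, n = 4) and the mutant mean 6.33 ± 1.88 FPKM (SD, n = 3), which is 3.29 times as high. On the log2(FPKM + 0.5) scale the difference was 1.47 with SE 0.208, and 1.30 without mutant 3. The ratio to the control mean was 2.90 over mutants 1 and 2 and 4.06 in mutant 3. The values rested on 131 to 547 reads per sample, the fewest among Synpr, Syp and Sypl.

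Syp encodes synaptophysin, an abundant vesicle protein that binds Vamp2, and lies at chrX:7638471-7653256 on the plus strand. Its FPKM was 22.65, 20.26, 31.43 and 25.43 in controls 1 to 4 and 26.69, 25.33 and 51.93 in mutants 1 to 3. Mutants 1 and 2 lay within the range of the controls and mutant 3 lay above it, so the groups overlapped. The means were 24.9 ± 4.81 (n = 4) and 34.7 ± 15.0 FPKM (n = 3), with a log2 difference of 0.41, SE 0.243, and 0.08 without mutant 3. Mutant 3 had 2.08 times the control mean and mutants 1 and 2 together 1.04 times. Sypl encodes pantophysin, a relative found in many cell types outside the nervous system, and lies at chr12:32953891-32979050 on the plus strand. Its FPKM was 96.36, 93.79, 86.54 and 87.29 in the controls and 72.81, 91.49 and 73.13 in the mutants, so that mutant 2 lay among the controls and the other mutants below them. The log2 difference was -0.21, SE 0.0896, and -0.15 without mutant 3.

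These 3 genes differed in their share of the summed level. Synpr, Syp and Sypl together reached 118 ± 3.01 FPKM (SD, n = 4) in controls and 120 ± 14.9 FPKM (SD, n = 3) in mutants, with overlapping groups. Sypl made up most of this sum in every sample. The share of Synpr was 1.63% ± 0.339 in controls and 5.19% ± 0.981 in mutants, which follows from the Synpr values above. Sypl2, another relative, was below the minimum for the test at 0.1438 to 0.6359 FPKM and is not in the sum.

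**Figure D1:**
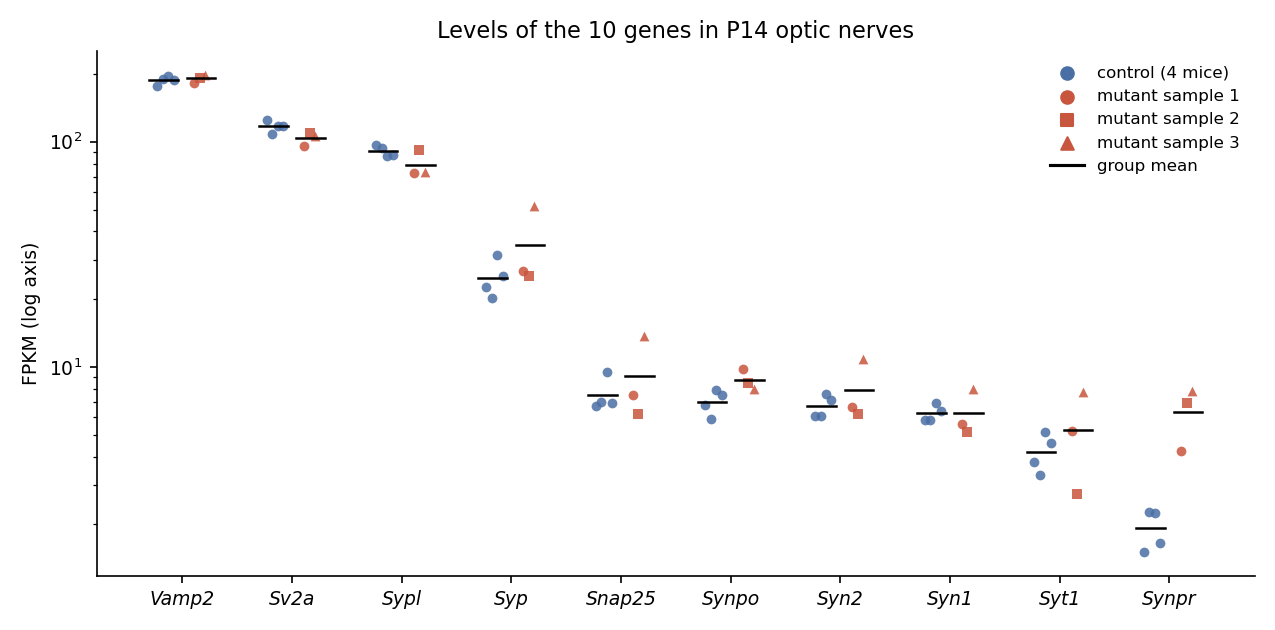
FPKM (log axis) of the 10 genes in each sample, with controls as circles, each mutant with its own symbol and a line at each group mean. Synpr has the lowest control mean, 1.92 FPKM, and its mutant samples lie between 4.219 and 7.822, above all controls, while the mutants of Syp, Snap25, Syn2 and Syt1 spread around the controls with mutant 3 highest.

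Sv2a, the widely expressed member of the SV2 family of transporter-like vesicle glycoproteins and the binding site of the antiepileptic drug levetiracetam, was somewhat lower in the mutants. It lies at chr3:96181151-96195521 on the plus strand. Its FPKM was 124.3, 108.6, 117.9 and 117.8 in controls 1 to 4 and 96.12, 108.8 and 106.1 in mutants 1 to 3. Mutant 2 exceeded control 2, so the groups touched, whereas in normalized counts they were apart, at 10030 to 11080 in controls and 7850 to 9781 in mutants. The means were 117 ± 6.46 and 104 ± 6.68 FPKM, with a log2 difference of -0.18, SE 0.0688, and -0.19 without mutant 3. Its relatives had lower levels. Sv2b was 1.073, 0.7615, 1.13 and 1.179 FPKM in the controls and 1.652, 1.663 and 2.07 FPKM in the mutants. Its log2 difference was 0.58, SE 0.143, with an adjusted p of 0.0651 (limma), short of the threshold. With the replicate number as a block the adjusted p was 0.0424 (limma). That block takes samples of the same number as pairs, a pairing that the labels do not give. Sv2c was 4.652, 3.822, 1.708 and 3.054 FPKM in the controls and 2.538, 1.516 and 3.901 FPKM in the mutants, with overlapping groups and an adjusted p of 0.631 (limma).

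The synapsins, phosphoproteins that bind vesicles to each other and to actin, did not separate the genotypes. Syn1 lies at chrX:20860511-20921004 on the minus strand and overlaps Timp1 and Araf on the opposite strand. Its FPKM was 5.813, 5.794, 6.927 and 6.407 in controls and 5.577, 5.141 and 7.959 in mutants, so mutants 1 and 2 were the lowest samples and mutant 3 the highest. Syn2 lies at chr6:115134902-115282626 on the plus strand and overlaps Timp4 on the opposite strand and Gm17482 on the same strand. Its FPKM was 6.041, 6.058, 7.616 and 7.135 in controls and 6.623, 6.187 and 10.84 in mutants, again with mutant 3 above all other samples. The log2 differences were -0.02 (SE 0.143) for Syn1 and 0.18 (SE 0.180) for Syn2, and without mutant 3 they were -0.20 and -0.06. Syn3, the remaining synapsin gene, was at 0.3757 to 0.7270 FPKM, with overlapping groups and an adjusted p of 0.418 (limma). The summed level of Syn1 and Syn2 was 12.9 ± 1.33 FPKM in controls and 14.1 ± 4.08 FPKM in mutants. Whether the counting used the strand is not stated in the sources used here, so reads of these overlapping genes may be mixed.

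Syt1, the calcium sensor of fast transmitter release, lies at chr10:108497650-109010982 on the minus strand. Its FPKM was 3.797, 3.324, 5.13 and 4.594 in controls 1 to 4 and 5.172, 2.738 and 7.767 in mutants 1 to 3. The mutants held both the lowest and the highest sample, and the log2 difference was 0.20 with SE 0.281, the largest SE among the 10 genes. Without mutant 3 it was -0.12. Its close relative Syt2 was below the minimum, at 0.0574 to 0.2069 FPKM in all 7 samples.

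Vamp2, the SNARE protein of the vesicle membrane, had the highest level of the set and varied least within each genotype. It lies at chr11:69088490-69092384 on the plus strand. Its FPKM was 177.6, 190.5, 195 and 188 in controls and 182.8, 192.5 and 198.6 in mutants, so the groups overlapped. The log2 difference was 0.03 with SE 0.0598, and it turned to -0.06 with each sample centred on its median and to -0.05 in normalized counts. Vamp3, the ubiquitous relative, reached a mean of 215 FPKM in controls with a log2 difference of -0.09, and Vamp1, which is prominent in motor neurons, reached 5.65 FPKM with a log2 difference of 0.04. Neither passed the test, with adjusted p-values of 0.482 and 0.868 (limma), and Vamp3 overlaps Camta1 on the same strand.

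Snap25, the SNARE protein of the neuronal plasma membrane, lies at chr2:136713453-136782428 on the plus strand. Its FPKM was 6.699, 7.011, 9.47 and 6.912 in controls and 7.533, 6.201 and 13.7 in mutants. Mutant 3 stood above all other samples and mutant 2 below them, and control 3 stood above the other controls. The log2 difference was 0.20 with SE 0.236, and -0.12 without mutant 3. Snap23, its relative in cells other than neurons, was at 31.51 to 34.34 FPKM in controls and 29.42 to 31.61 FPKM in mutants, with a log2 difference of -0.10 and an adjusted p of 0.333 (limma).

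Synpo encodes synaptopodin, an actin-binding protein of dendritic spines and of kidney podocytes that is not a vesicle protein. It lies at chr18:60593973-60648319 on the minus strand. Its FPKM was 6.782, 5.879, 7.921 and 7.515 in controls 1 to 4 and 9.755, 8.529 and 8.025 in mutants 1 to 3. The lowest mutant was just above the highest control, and in normalized counts the groups overlapped, at 905.9 to 1193 in controls and 1128 to 1329 in mutants. The means were 7.02 ± 0.897 and 8.77 ± 0.890 FPKM, with a log2 difference of 0.30, SE 0.115, and 0.36 without mutant 3. Synpo was highest in mutant 1, and Synpr in mutant 3.

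Across the set, 7 genes had a higher and 3 a lower mean log2 level in the mutants, and the median log2 difference was 0.19 against 0.05 over all genes tested, of which 60.1% were above 0. Without mutant 3 the counts were 3 higher and 7 lower, and the median was -0.09 against 0.04 over all genes. Synpr passed the adjusted threshold and no other member did, 1 of 10 where 1.26% of all genes were called higher, 1.36% lower and 2.62% in either direction. It passed in 3 of the 7 fits that left out 1 sample, those without control 4, mutant 1 or mutant 2, and did not pass when no filter on low values was used. Sypl passed, with the mutants lower, in the fit without mutant 2. In 2 of 10 genes, Synpr and Synpo, the groups did not overlap with the mutants higher, as in 12.9% of all genes, with 8.26% apart and lower and 21.1% apart in either direction. Since the set was chosen on this difference, nothing is read from these counts. Mutant 3 was the highest of the 7 samples in 7 of 10 members and in 16.4% of all genes tested.

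**Figure D2:**
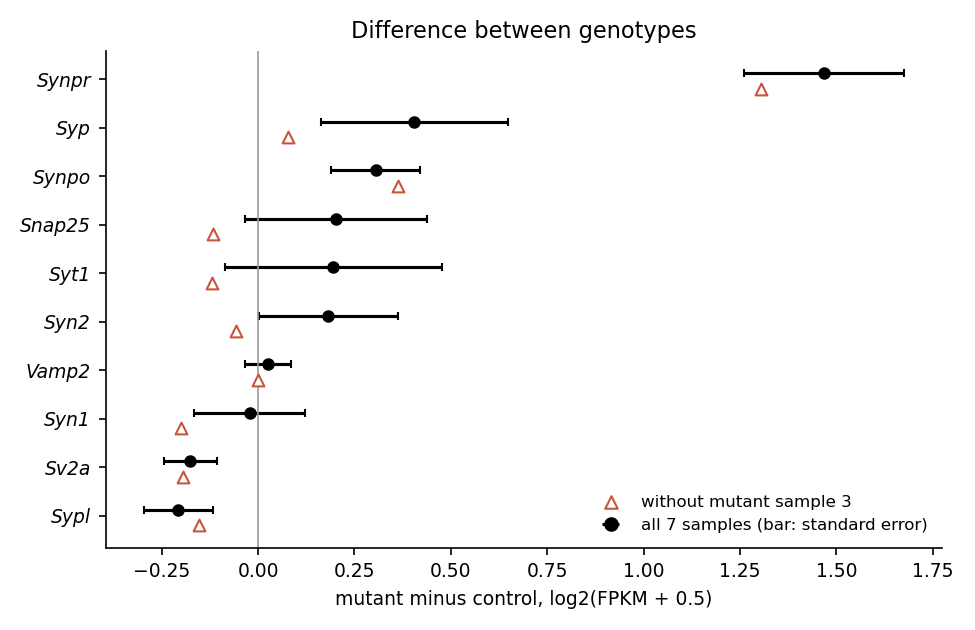
Difference between mutants and controls on the log2(FPKM + 0.5) scale for the 10 genes, with filled points for all 7 samples (bars, standard error) and open triangles for the fit without mutant 3. Synpr stays far to the right at 1.47 and 1.30, whereas Syp moves from 0.41 to 0.08 and Snap25, Syt1 and Syn2 cross 0 to the left.

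The order of the levels in the controls fell into clear steps at the top and a close group below. The control means were 188 FPKM for Vamp2, 117 for Sv2a, 91.0 for Sypl and 24.9 for Syp, and the ranges of these genes did not overlap. Snap25 at 7.52, Synpo at 7.02, Syn2 at 6.71 and Syn1 at 6.24 FPKM overlapped their neighbours in this order, and Syt1 at 4.21 and Synpr at 1.92 FPKM each lay below the range of the gene before. In the mutants the first 4 places were the same, and from there on each gene overlapped its neighbours, with Snap25 at 9.14, Synpo at 8.77, Syn2 at 7.88, Synpr at 6.33, Syn1 at 6.23 and Syt1 at 5.23 FPKM. Synpr, the lowest of the 10 in controls, stood at place 8 in the mutants.

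Within genotypes, 5 of the genes varied together and Synpr less so. Over the 7 deviations from the group means, Pearson's r among Syp, Syn1, Syn2, Syt1 and Snap25 lay between 0.864 and 0.996 over the 10 pairs. Their r with Synpr lay between 0.0584 and 0.494, and the highest r of Synpr with a member was 0.89, with Vamp2. These points share library depth and tissue make-up, and mutant 3 weighs heavily in them. Among 11694 genes with a mean of at least 2 FPKM, those with the highest r to Synpr were 9330159F19Rik (0.992), Cacng4, an auxiliary subunit of AMPA receptors (0.988), S100a16, an EF-hand calcium-binding protein (0.984), Scg5, a chaperone of a prohormone convertase in secretory granules (0.983), and Nipsnap1, a mitochondrial protein (0.982). The highest r over 7 points among so many genes is given as a description. These 5 genes did not share the difference between genotypes of Synpr, with log2 differences from -0.43 for S100a16, which passed the test at an adjusted p of 0.0451 (limma), to 0.20 for Scg5, which did not.

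Ordered by level, the samples of Synpr ran from control 1 through controls 4, 3 and 2 to mutants 1, 2 and 3. Only genes with the groups apart and the mutants higher can have this order, 1785 (12.9%) of the 13866 genes tested. Of the 13865 other genes tested, 9 (0.0649%) had their 7 samples in exactly this order, and 1 of the 9 is in the marker lists. It is Avp, the vasopressin gene of magnocellular neurons of the hypothalamus, whose FPKM was 14.47, 42.33, 38.48 and 14.9 in controls 1 to 4 and 51.97, 70.99 and 224.5 in mutants 1 to 3. The groups of Avp were apart, with a log2 difference of 1.92, SE 0.545, and an adjusted p of 0.0892 (limma), which did not pass, and 0.0254 with the replicate number as a block. Without mutant 3 the difference was 1.30. The most abundant of the other 8 were Fam213a, Sfxn5 and Lcat, with mean levels of 109, 89.1 and 32.6 FPKM. Cldn10, a claudin, was at 3.52 FPKM in controls and 6.98 FPKM in mutants. The log2 differences of these 8 ran from 0.25 for Pank2 to 0.86 for Cldn10. Their adjusted p-values ran from 0.0571 for Cldn10 to 0.147 for Prokr2 (limma), so none passed. These 8 are in none of the marker lists, so they were set against no cell type. Whether Synpr shares a cell type with Avp or with any of these 8 was not tested. This comparison of orders was made after the values had been seen, and nothing is read from it.

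**Figure D3:**
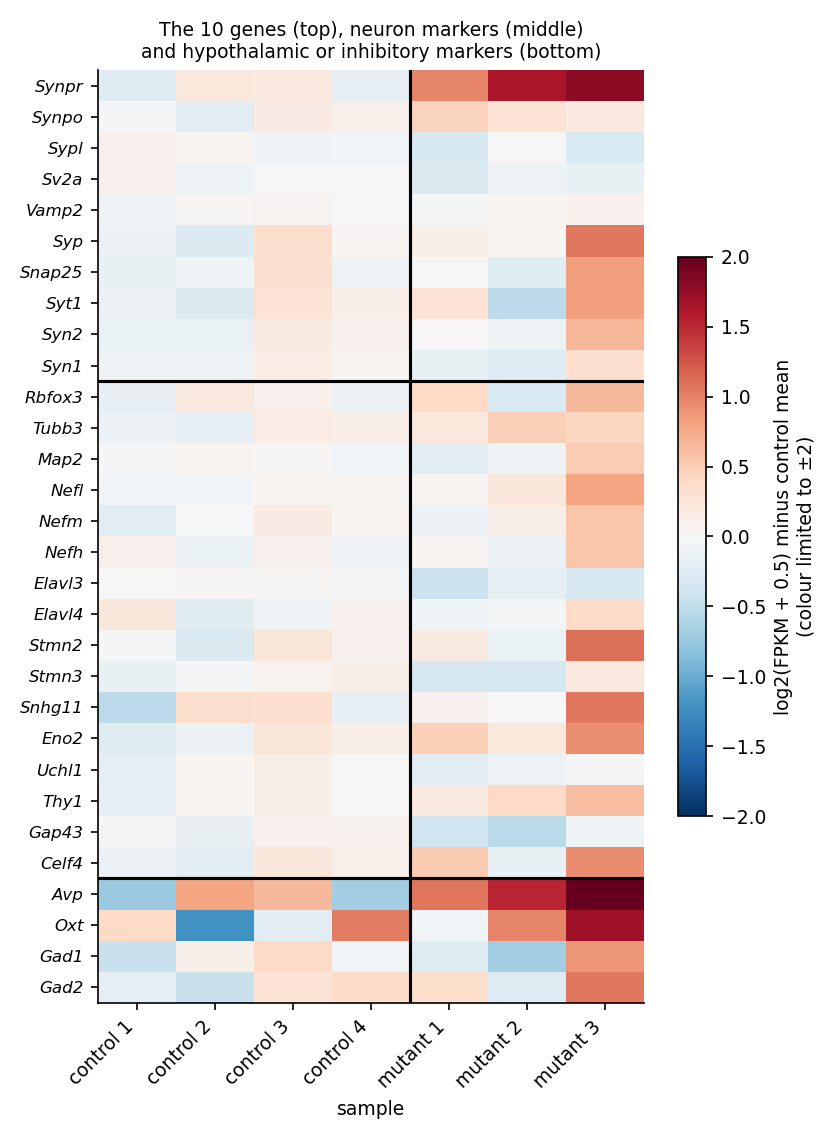
Level of each gene in each sample relative to the control mean, log2(FPKM + 0.5), colour limited to ±2, with the 10 genes at the top, markers of neuron cell bodies in the middle and markers of hypothalamic or inhibitory neurons at the bottom. Synpr is raised in all 3 mutants, while the neuron markers vary more between the mutants, and mutant 3 is the highest of the 7 samples for 12 of 16 markers of neuron cell bodies.

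A wider set of 99 genes for other parts of the synapse was examined beside the 10, of which 89 passed the minimum. Of these, 1 passed the test, Rims2, with the mutants lower, where 1.36% of all genes passed in that direction. The log2 difference was above 0 in 50 and below 0 in 39, with a median of 0.04, where 60.1% of all genes were above 0. Without mutant 3 the counts were 39 and 50 with a median of -0.02. The 16 genes with an unadjusted p under 0.05 in limma compare with 24.4% of all genes tested. Mutant 3 was the highest sample in 43 of the 89, and in 16.4% of all genes tested.

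Rims2 encodes a scaffold protein of the active zone that docks vesicles near calcium channels, and lies at chr15:39198332-39681940 on the plus strand. Its FPKM was 16.92, 15.01, 14.43 and 13.65 in controls 1 to 4 and 10.53, 11.25 and 10.44 in mutants 1 to 3, with all mutants below all controls. The log2 difference was -0.46, SE 0.0850, with an adjusted p of 0.0341 (limma). When 1 sample was left out, the adjusted p lay between 0.0365 and 0.112 and stayed under the threshold only without mutant 2. Of the 12 active zone genes tested, 10 had a difference above 0 and none but Rims2 passed, among the 10 Rph3a, an effector of Rab3 (0.17, adjusted p 0.369), and Ppfia3, a liprin (0.16, adjusted p 0.465, limma).

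Of 23 further genes of the vesicle membrane tested, 13 were above and 10 below 0, and none passed. The most abundant was Syt11, a synaptotagmin that does not bind calcium, at 405.5 to 419.2 FPKM in controls and 330.4, 411.9 and 365.4 FPKM in mutants, with a log2 difference of -0.16 and an adjusted p of 0.252 (limma). Of 21 fusion genes, 13 were above 0 and none passed. Napa, the SNAP protein that recycles SNAREs, had a difference of -0.06, Snap47 of 0.13, and Cadps2, a priming factor of dense-core vesicles, of 0.38, with adjusted p-values of 0.501, 0.400 and 0.125 (limma).

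Of 19 genes of vesicle recycling, 6 were above and 13 below 0, with a median of -0.06, and none passed. Dnm1, the neuronal dynamin that cuts vesicles from the membrane, was 41.57, 42.23, 50.13 and 48.21 FPKM in controls and 34.26, 31.55 and 38.61 FPKM in mutants. All mutants were below all controls, with a log2 difference of -0.38, SE 0.0934, and an adjusted p of 0.0651 (limma), which was 0.0346 with the replicate block. Ap2m1, a subunit of the AP-2 clathrin adaptor, had a difference of -0.06 and Bin1, an amphiphysin, of -0.27, and Sncg, a synuclein of retinal ganglion cells among others, had 0.44, with adjusted p-values of 0.546, 0.129 and 0.178 (limma). Of 14 postsynaptic genes tested, 8 were above and 6 below 0, and none passed. Gria2, an AMPA receptor subunit also present in OL progenitors, had the largest difference of this list, -0.50, with an adjusted p of 0.0892, while the scaffold gene Dlg4 had 0.10 and the actin crosslinker gene Actn4 -0.06, with adjusted p-values of 0.501 and 0.642 (limma).

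**Figure D4:**
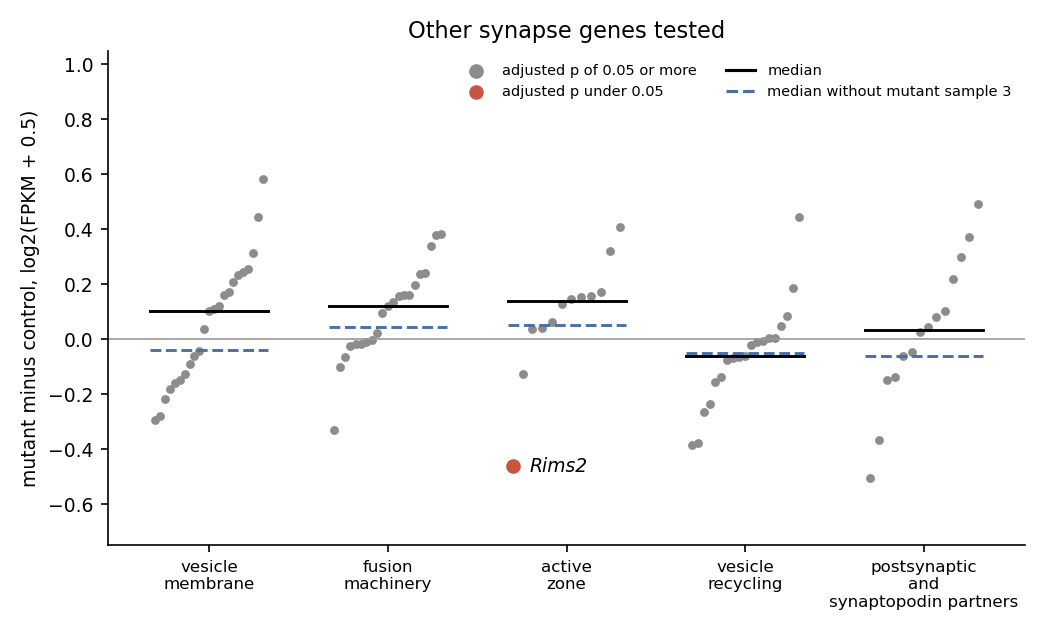
Difference between mutants and controls, log2(FPKM + 0.5), of each synapse gene tested outside the 10, by list, with the median over all 7 samples (solid) and without mutant 3 (dashed). A single gene, Rims2 at -0.46, passes the adjusted threshold, and the medians lie between -0.06 and 0.14.

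Markers of cell types were set beside Synpr, and their part in its difference was not tested. Of 16 markers of neuron cell bodies, 12 were above 0, as were 60.1% of all genes tested. The median of the 16 was 0.22, and 0.01 without mutant 3. Only Elavl3, an RNA-binding protein, passed, with the mutants lower (-0.31, SE 0.0658, adjusted p 0.0480, limma), where 1.36% of all genes were called lower. It passed in 1 of 7 fits with a sample left out. With the replicate block Tubb3, Eno2 and Thy1 passed as higher and Elavl3 as lower, where 6.42% and 1.94% of all genes did. Uchl1, a deubiquitinase abundant in neurons, was 67.93 to 78.38 FPKM in mutants and 70.3 to 86.6 FPKM in controls, with an adjusted p of 0.411. Of 13 markers of inhibitory and hypothalamic neurons none passed, and after Avp the most abundant was Oxt, the oxytocin gene, at 3.474 to 18.28 FPKM in controls and 8.357 to 29.23 FPKM in mutants (0.87, adjusted p 0.343, limma). The order of the samples for Oxt was not that of Synpr. Of 9 markers of retinal ganglion cells, 5 were under the minimum, among them the defining transcription factor gene Pou4f2 at 0 to 0.0873 FPKM. The 4 tested were above 0 without passing. Their list summed to 16.3 to 18.4 FPKM in controls and 19.0 to 27.1 FPKM in mutants, most of it Rbpms, which vessels also express, and Sncg. Of 13 markers of photoreceptors and retina, 10 were under the minimum, Pdc and Prph2 were listed at 0 in all samples, and the sum was 4.70 to 8.15 FPKM in controls and 6.56 to 8.42 FPKM in mutants, led by Rlbp1.

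Of 10 astrocyte markers, 4 passed the threshold with the mutants higher (Aldoc, Gja1, Aldh1l1 and Slc1a2), where 1.26% of all genes did. With the replicate block 7 passed, where 6.42% of all genes were called higher, and without mutant 3 none passed, where 0.0433% of all genes were called in either direction. All 10 differences were above 0, as were 60.1% over all genes, with a median of 0.53, and the list summed to 3376 to 3789 FPKM in controls and 4323 to 5182 FPKM in mutants. Gfap, the most abundant, had a difference of 0.36 with an adjusted p of 0.0953, and Slc1a2, the glutamate transporter, had 0.67 with an adjusted p of 0.0437 (limma). Relative to 1000 FPKM of this sum, Synpr was 0.544 ± 0.132 FPKM in controls and 1.28 ± 0.275 FPKM in mutants, a ratio of 2.35 with the groups apart. The nerve was rich in the markers of its own glia, with a summed level of the mature OL list between 25205 and 36505 FPKM. Of the OL lineage, 9 of 10 markers of OL progenitors, 7 of 7 of newly formed OLs and 8 of 10 of mature OLs were below 0, of which 5, 1 and 2 passed, where 1.36% of all genes were called lower, and 1 mature marker (Klk6) passed with the mutants higher. With the replicate block 6, 4 and 0 passed as lower, where 1.94% of all genes did, and without mutant 3 none of these markers passed. Relative to the neuron cell body list the Synpr ratio of mutants to controls was 3.19, to the microglial list 2.84, to the mature OL list 4.12 and to the progenitor list 4.38, all with the groups apart. The sum of the neuron cell body list, mostly Elavl3, Uchl1 and Map2, is no measure of neuron number. No such ratio was taken to the inhibitory and hypothalamic list. The summed level of that list was itself 2.67 times as high in the mutants, with the groups apart, at means of 62.8 and 168 FPKM. Avp alone had means of 27.5 FPKM in controls and 116 FPKM in mutants, and was the only 1 of the 13 markers with the groups apart. The median log2 difference of the 13 was 0.06, with 7 above and 6 below 0.

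All 9 meningeal markers had a difference above 0, as did 60.1% of all genes, and none passed the threshold. With the replicate block 6 passed as higher, where 6.42% of all genes did. Ptgds was at 5678 to 6619 FPKM in controls and 14540, 7427 and 10360 FPKM in mutants 1 to 3 (adjusted p 0.0820, limma). Relative to the meningeal list Synpr had a ratio of 2.16, and here mutant 1 lay within the controls, so the groups overlapped. All 8 microglial and all 10 endothelial and mural markers were above 0 without passing, with medians of 0.14 and 0.25, and 1 and 3 passed as higher with the replicate block. Of the 5 Schwann cell markers, 4 were tested and none passed.

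**Figure D5:**
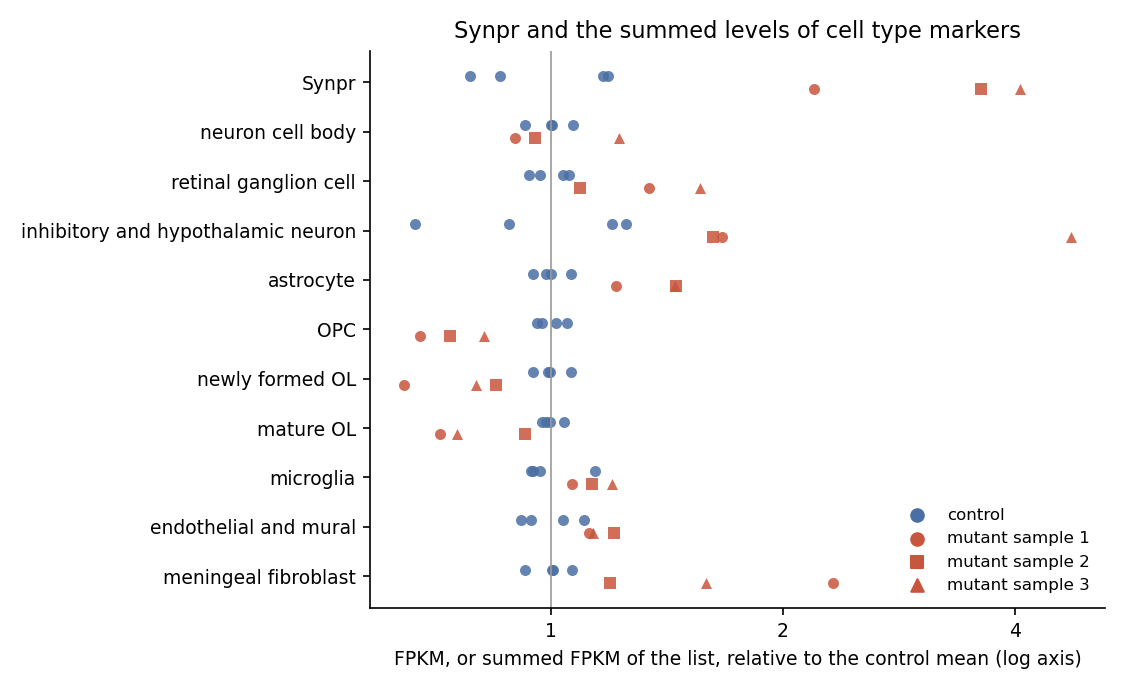
FPKM of Synpr and summed FPKM of the cell type lists in each sample, relative to the control mean (log axis), with each mutant shown by its own symbol. All mutant samples of Synpr lie above the controls. The same holds for the astrocyte, retinal ganglion cell, inhibitory and hypothalamic, endothelial and mural, and meningeal lists. The inhibitory and hypothalamic list is highest in mutant 3 at 297 FPKM, most of it Avp. In the lists of the OL lineage the mutants lie below 1.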

How the data were processed

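RNA of P14 optic nerves of 4 control and 3 mutant mice was sequenced after polyadenylated selection with a stranded kit, single end. The submitters' processing notes name STAR 2.5.1b, RSEM 1.2.22, edgeR and the build GRCm38. Whether the counting used the strand is not given in the sources used here. Each of the 22880 genes had 14 deposited values of single samples, all used. In 7 columns the authors gave normalized counts (a signal per gene, estimated counts of RSEM scaled per sample), and in 7 they gave FPKM values, made from those counts with the length of the gene and the size of the library. Its columns of the authors' own log2 ratio, p-value and FDR were not used.

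The test had been planned for counts or, failing these, FPKM, and no raw counts are in the table. It was limma 3.58.1 (R 4.3.3) with a trend, run on log2(FPKM + 0.5). Genes had to reach 0.5 FPKM in 3 or more samples, with genotype as the only term, with Benjamini-Hochberg adjustment over 13866 genes and a threshold of 0.05. Fold changes on this scale understate those of low genes. Dividing the normalized counts by the value of 1 read gave reads, of which 76.3% to 80.8% were whole (within 0.05, over values of 0.5 to 20 reads), the others being fractional as RSEM estimates are. The fit was tested on simulated data. Replicates differed by more than counting noise.

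The 10 members and all gene lists were chosen with earlier results of these data known. The text names Fasn, the members, certain homologues (Vamp1, Vamp3, Snap23, Sv2b, Sv2c and Syt2), in each synapse list the genes past the threshold, the 2 most abundant and the one with the largest difference, in each cell type list up to 2 of the most abundant, in neuron lists those past the threshold, and the 5 genes most correlated with Synpr. Dnm1, Stxbp6, Sypl2, Syn3, the genes in the order of Synpr and the glial, retinal and neuronal markers outside this rule were chosen after their values had been seen. Mical3, whose symbol is on 2 entries, was left out of its list. Alternatives were the pseudocount, the filter, median centring, normalized counts, edgeR 4.0.16 and DESeq2 1.42.0 on recovered reads, a replicate block and leaving out each sample. Samples with the same label number had correlated deviations, at 0.168 to 0.409 over 3 pairs against -0.353 to 0.205 for other pairs. These ranges overlap, with mutant 1 at 0.168 to control 1 and 0.205 to control 4. For the replicate block the numbers were taken to pair the samples, though the labels do not say what a number stands for. Control 4 has no partner, so the block fit rests on 3 assumed pairs. The pairing was inferred from these same data. Promoter windows are those of RefSeq on GRCm38.p6. Some genes are not reported here.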

Additional observations from a re-analysis of the deposited data

Results flagged for a closer look

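Each of 100 control groups of 4 samples, of Fasn, the members and the synapse genes tested, was examined for a sample far from the others by Dixon's ratio (above 0.829), which chance gives in about 1 group in 20, and 6 were found. Among the members, Snap25 was 9.47 FPKM in control 3 against 6.699 to 7.011 FPKM in the other controls. Control 2 was high for Clta, 73.56 against 66.98 to 67.4 FPKM, and for Gria2, 21.07 against 17.11 to 17.47 FPKM. It was low for Nsf, 29.59 against 39.08 to 39.17 FPKM, and for Slc17a6, 0.23 against 0.5176 to 0.545 FPKM. Stxbp6 was 39.22 FPKM in control 4 against 41.97 to 42.41 FPKM.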

How the results depend on the processing

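Fasn and Synpr kept their direction under all 16 alternatives each, at -2.02 to -1.77 and 1.30 to 1.71 on the log2 scale. Synpr was not called with no filter or without control 1, 2 or 3 or mutant 3, and Sypl was called without mutant 2. Of the 144 alternatives for the other members, 142 moved by less than the replicate spread, and the sign changed in 11, in 5 members. Calls over all genes (363, 175 of them higher) moved to 95 with no filter and 1683 with DESeq2 (920 higher). They lay between 6 and 907 with 1 sample left out, at 6 without control 3 or mutant 3, 15 without control 2, 60 without control 1, 117 without control 4, 186 without mutant 1 and 907 without mutant 2. With median centring 117 of 400 were higher, and with normalized counts 102 of 368. With the replicate block 1159 genes passed, 890 of them higher, and 4 synapse genes (Dnm1, Rims2 and Stxbp6 lower, Sv2b higher) in place of 1. It changed no call of Fasn or of the members. Synapse calls were 0 with no filter (16 at an unadjusted p under 0.05 in limma), 2 with median centring and with normalized counts (Dnm1 and Rims2), 3 with edgeR (Dnm1, Rims2 and Sv2b) and 9 with DESeq2 (1 higher). With 1 sample left out they were 0 to 3, at 0 in limma except without mutant 2 (13 to 18 unadjusted, and 26 without mutant 2). The causes of these shifts were not tested.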
